A study of Mus musculus with 12 samples.

Results

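The aminoacyl-tRNA synthetases are the enzymes that load each transfer RNA with its amino acid, and 36 genes encoding them were taken by gene symbol from a table of 41128 mouse genes. The set holds 20 cytosolic enzymes and 16 mitochondrial enzymes, the latter being those whose symbol ends in 2. All 36 were found in the table, and all 36 passed the filter on low values described next to the first test. Expression was measured by RNA sequencing of spleen lymphocytes from C57BL/6J mice aged 6 to 8 weeks, with no treatment or introduced allele. The 12 libraries form 4 groups of 3, namely female and male resting B cells lacking CD43, and female and male naive CD4+ T cells sorted as CD62L high, CD44 low and CD25 negative. Each replicate is a pool of mice per the series, and p-values therefore measure the spread between pools. In bulk samples, fewer cells expressing a gene and less RNA per cell cannot be told apart.

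A synthetase first activates its amino acid with ATP and then transfers it to the matching tRNA, and the charged tRNA is carried to the ribosome by an elongation factor. Cells translate in the cytosol and in the mitochondrion, and most amino acids have a separate nuclear gene for the enzyme that is imported into the mitochondrion. Gars and Kars are exceptions, because each encodes both forms from a single gene, and Eprs is a fused enzyme that charges both glutamate and proline tRNAs. Several cytosolic synthetases assemble into the multisynthetase complex, whereas the seryl, valyl, asparaginyl, glycyl, threonyl and other enzymes work outside it. Lymphocytes are known to raise synthetase expression when they leave rest and grow, and the cells studied here were taken at rest.

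Values are adjusted TPM, a length-corrected share of transcripts that the authors rescaled between libraries, so levels of different genes can be set side by side. The markers matched the labels, since 5 of 5 B cell markers were higher in the B cell libraries and 5 of 5 T cell markers in the T cell libraries. The library totals ran from 561020 to 1453940, and read depth is unknown. The deposited interval of a synthetase other than Lars2 had a median ratio of upper to lower bound of 1.12, from 1.07 to 1.30 between genes. Female B library 1 and male T library 6 stood apart. The transcript Gm42418, listed by RefSeq as a copy of 18S ribosomal RNA, took 32.2% and 37.4% of their totals, against 2.03% to 17.8% in the other libraries.

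Most synthetase transcripts lay within a narrow band of levels, and the cytosolic enzymes stood above the mitochondrial ones. In B cells the median over 6 libraries of a cytosolic gene ran from 11.1 adjusted TPM for Yars, the tyrosyl enzyme, to 149 for Vars, the valyl enzyme, with a class median of 26.5. In T cells the same class ran from 13.2 for Yars to 80.2 for Sars, the seryl enzyme, with a class median of 29.6. The mitochondrial genes other than Lars2 ran from 3.90 for Sars2 to 19.7 for Iars2 in B cells, with a median of 8.63. In T cells they ran from 3.87 for Wars2 to 26.1 for Iars2, with a median of 9.72. Lars2, the mitochondrial leucyl enzyme, was outside this band by orders of magnitude in every library and is described separately. After Lars2 and Vars, the order in B cells was Qars, Dars, Sars and Kars, with medians of 47.2, 43.3, 42.0 and 39.5, and the library ranges of these neighbours overlapped. In T cells the order after Lars2 was Sars, Dars and Qars, with medians of 80.2, 71.9 and 55.2. The ranges of Sars and Dars overlapped in T cells, whereas Dars, from 61.0 to 77.6, lay above Qars, from 49.7 to 58.9.

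**Figure D1:**
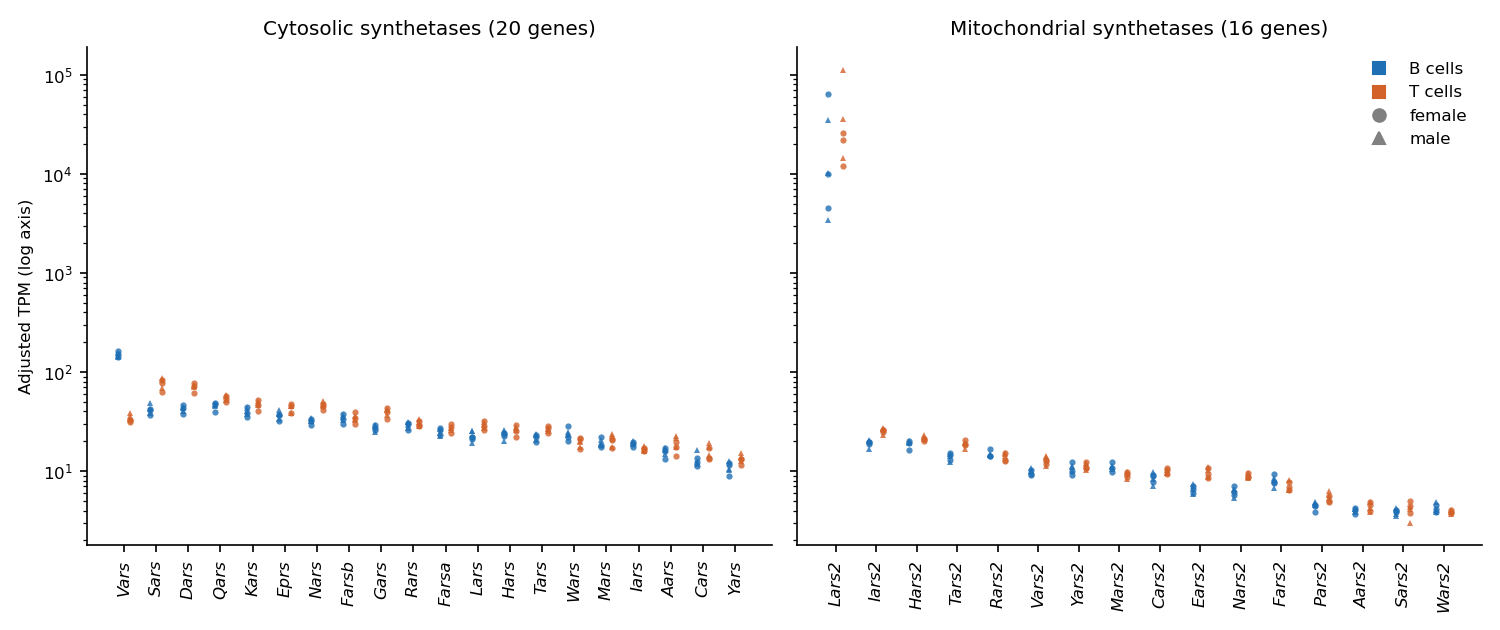
Adjusted TPM (log axis) of each synthetase gene in the 12 libraries, cytosolic enzymes left and mitochondrial enzymes right, with B cell libraries in blue, T cell libraries in orange, females as circles and males as triangles. Lars2 lies between 3391 and 112633, while no library of any other synthetase exceeds the 163 of Vars in B cells.

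Among synthetases past the threshold, B and T cells differed most in Vars, which was higher in B cells, and in Sars and Dars, which were higher in T cells, while most other synthetases differed little and more often with the higher level in T cells. The 12520 genes that reached an adjusted TPM of 1 in 3 or more libraries were tested by limma on log2(adjusted TPM + 1), with Benjamini-Hochberg adjustment over all of them. Fold changes below are on that scale, which understates the change of low genes, and an adjusted p under 0.05 counts as past the threshold. Of the 36 synthetases, 24 passed, where 73.0% of all genes tested did. Higher in B cells were 4 of them, Vars, Wars, Iars and Mars2, where the background was 31.4%. Higher in T cells were 20, where the background was 41.6%. The 6 B and 6 T libraries did not overlap for 14 synthetases, which is 38.9% of them, against 53.9% of all genes tested. The share of synthetases past the threshold was thus no larger than that of genes at large. The median log2 fold change, B minus T, was -0.23 over the members and -0.09 over all genes tested.

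The split between the directions depended on how libraries were scaled. With the authors' scaling it was 4 higher in B and 20 higher in T cells. With median-ratio scaling it was 7 and 15, and with every library brought to the same total it was 7 and 1. With the protein-coding total without Lars2 made equal, an alternative chosen after the data were seen, it was 9 and 7. In the same order, 9134, 9050, 6797 and 8994 of the 12520 genes tested passed the threshold. Of those, 3926, 4536, 4812 and 5672 were higher in B cells. The median log2 fold change of all genes tested moved in step, from -0.09 to -0.01, 0.25 and 0.13. Vars, Wars, Iars and Mars2 stayed higher in B cells and past the threshold in all 19 alternatives, and Sars stayed higher in T cells in all 19. The small differences of the other members are therefore relative to the scaling the authors chose.

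**Figure D2:**
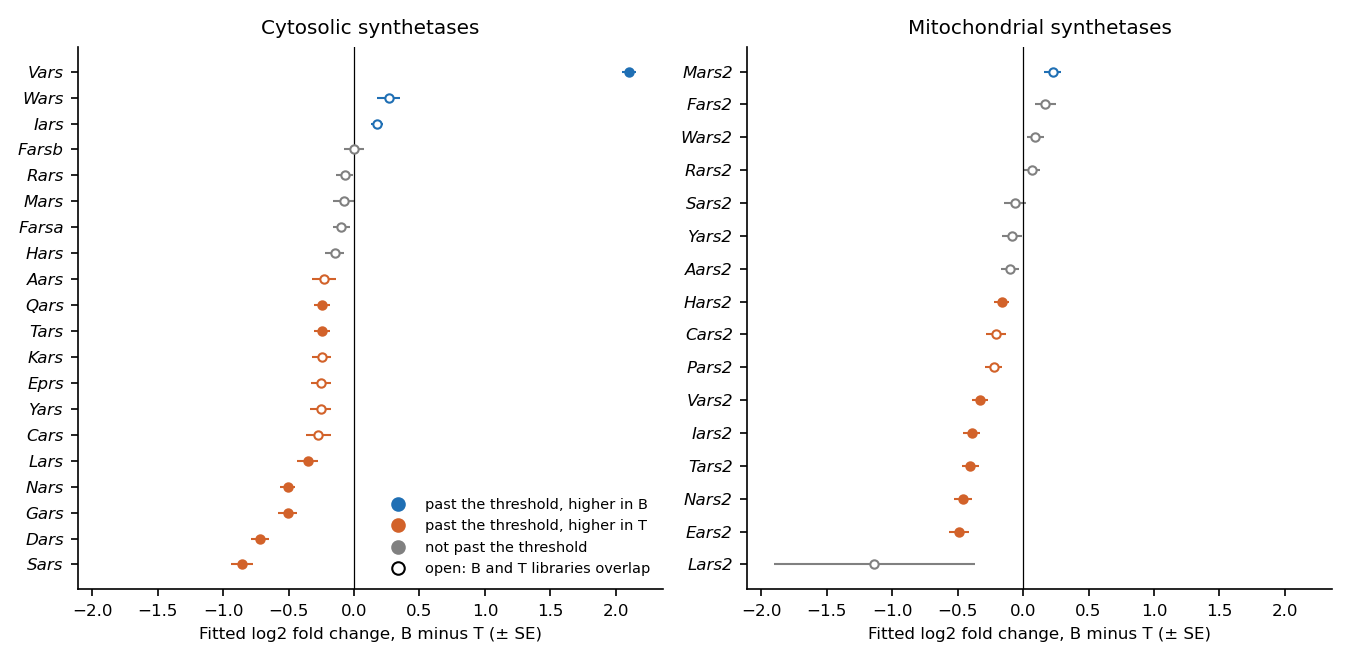
Fitted log2 fold change of each synthetase, B minus T, with its SE (limma, 12 libraries), cytosolic left and mitochondrial right, colored by whether it passed the threshold and filled where the 6 B and 6 T libraries did not overlap. Vars stands alone at 2.10, most other genes lie between -0.86 and 0.26, and Lars2 has an SE of 0.77.

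Vars encodes the cytosolic enzyme for valine and lies on the plus strand at chr17:35000987-35016322 (GRCm38). Its levels in female B cells were 153, 141 and 163 adjusted TPM, and in male B cells 145, 157 and 141. In female T cells they were 33.2, 31.2 and 32.4, and in male T cells 38.3, 36.2 and 33.9. Every B cell library lay far above every T cell library, and the sexes overlapped within B cells. The mean was 150 ± 9.18 (SD, n = 6) in B cells against 34.2 ± 2.60 (SD, n = 6) in T cells, a fitted log2 fold change of 2.10 (SE 0.05, limma adjusted p = 1.2e-12), or 4.29-fold. The change held between 2.08 and 2.13 when any single library was left out. Vars alone made up 20.2% to 24.6% of the summed cytosolic synthetase level in B cells against 4.50% to 5.37% in T cells. Its mitochondrial counterpart Vars2, which lies elsewhere on the same chromosome, was the higher in T cells, at 9.94 ± 0.553 in B cells against 12.8 ± 1.12 in the T cell libraries (SD, n = 6, log2 fold change -0.33, SE 0.06, limma adjusted p = 0.00038), but not past the threshold with every library brought to the same total (log2 fold change 0.020).

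The Vars transcript shares sequence with other genes, and those were low. By blastn its first annotated transcript was 83.4% identical over 2565 aligned bases to the processed pseudogene Gm14780 on chromosome X, and 64.0% identical over 2109 to Vars2. Gm14780 was at 0.503 ± 0.126 adjusted TPM in B cells against 0.146 ± 0.0384 in T cells (SD, n = 6). Of the coding genes within 20000 bases that the table holds, the highest was Lsm2, a subunit of an RNA-binding ring, at 9.92 ± 1.12 in B cells against 11.4 ± 0.917 in T cells. On the other side, Vwa7, Sapcd1 and Msh5 were at 0.430 ± 0.109, 1.93 ± 0.214 and 1.86 ± 0.410 in B cells. In T cells they were at 0.0448 ± 0.00981, 0.00887 ± 0.00870 and 0.482 ± 0.137. Whether any of these genes contributes to the values listed for Vars was not tested.

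The other members with a higher level in B cells showed small differences. Wars, the tryptophanyl enzyme, was at 23.7 ± 2.86 in B cells against 19.5 ± 2.05 in the T cell libraries (SD, n = 6, log2 fold change 0.26, SE 0.09, limma adjusted p = 0.018). Iars, the isoleucyl enzyme of the multisynthetase complex, was at 19.0 ± 0.973 and 16.7 ± 0.647 (log2 fold change 0.18, SE 0.05, adjusted p = 0.0059). Mars2, the mitochondrial methionyl enzyme, was at 11.0 ± 0.849 and 9.22 ± 0.619 (log2 fold change 0.23, SE 0.07, adjusted p = 0.0074). In each of these genes 1 of the 6 B libraries lay within the range of the T libraries and the others lay above it. Iars carries the small nucleolar RNA Gm25394 on the same strand within its span, listed at a mean of 143 in B and 283 in T cells.

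Sars, the cytosolic seryl enzyme, showed the largest difference among members past the threshold that were higher in T cells. Its levels were 37.0, 42.5 and 41.5 adjusted TPM in female B cells and 48.3, 39.0 and 42.7 in male B cells. They were 82.2, 78.2 and 62.4 in female T cells and 86.3, 82.2 and 69.5 in male T cells. The lowest T library lay above the highest B library, and in each sex the T library numbered 6 was the lowest. The means were 41.8 ± 3.85 and 76.8 ± 9.05 (SD, n = 6), a log2 fold change of -0.86 (SE 0.08, limma adjusted p = 1.1e-06), or 1.81-fold higher in T cells.

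Dars, the aspartyl enzyme of the multisynthetase complex, was at 38.1, 46.9 and 43.0 in female and 43.6, 40.3 and 44.6 in male B cells. In T cells it was at 77.6, 72.2 and 61.0 in females and 73.3, 71.2 and 71.6 in males. No libraries of the cell types overlapped, and the fitted log2 fold change was -0.72 (SE 0.07, limma adjusted p = 7.6e-07). Gars, the glycyl enzyme that serves both compartments, had a lowest, median and highest level of 24.9, 27.8 and 29.4 in B cells against 33.6, 40.3 and 43.1 in the T cell libraries (log2 fold change -0.51, SE 0.07, adjusted p = 2.9e-05). Nars, the asparaginyl enzyme, had 29.2, 32.2 and 34.1 in B cells against 41.1, 46.0 and 51.3 in the T cell libraries (log2 fold change -0.51, SE 0.06, adjusted p = 3.6e-06). Both genes thus had every T library above every B library. Ears2, the mitochondrial glutamyl enzyme, was lower in level, with a mean of 6.62 ± 0.578 in B cells against 9.72 ± 1.06 in the T cell libraries (SD, n = 6, log2 fold change -0.49, SE 0.08, adjusted p = 9.6e-05), again without overlap. With every library brought to the same total, Dars, Gars, Nars and Ears2 kept their direction with log2 fold changes of -0.35, -0.14, -0.13 and -0.15 and were not past the threshold.

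**Figure D3:**
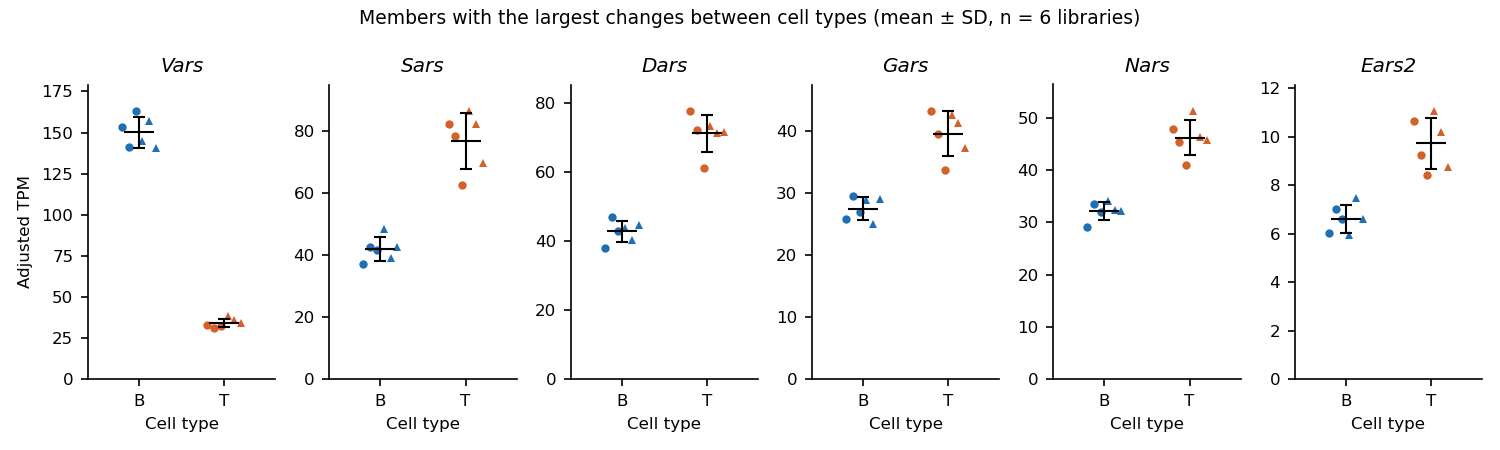
Adjusted TPM of the members with the largest non-overlapping changes in each B cell library (blue) and T cell library (orange), females as circles and males as triangles, with the mean and SD (n = 6) in black on axes that start at 0. Vars falls from a mean of 150 in B cells to 34.2 in T cells, while Sars, Dars, Gars, Nars and Ears2 are higher in all 6 T cell libraries.

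A further 8 synthetases were higher in T cells without overlap of libraries, namely Nars2, Tars2, Iars2, Lars, Vars2, Qars, Tars and Hars2. Their log2 fold changes ran from -0.46 for Nars2 to -0.16 for Hars2. Higher in T cells but with overlapping libraries were Aars, Cars, Eprs, Kars, Yars, Cars2 and Pars2, with log2 fold changes from -0.27 for Cars to -0.21 for Cars2. Some of these calls depended on single libraries. With each of the 12 libraries left out in turn, Aars lost its call in 8 fits, Cars in 5 and Cars2 in 4. Not past the threshold were Farsa, Farsb, Hars, Mars and Rars among the cytosolic genes and Aars2, Fars2, Lars2, Rars2, Sars2, Wars2 and Yars2 among the mitochondrial ones. Without Lars2, their log2 fold changes lay between -0.15 for Hars and 0.17 for Fars2.

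Among the 8 synthetases of the multisynthetase complex, Eprs, Mars, Qars, Iars, Lars, Kars, Rars and Dars, 5 were higher in T cells, 1 was higher in B cells and 2 did not pass. These are 75.0% past the threshold, near the 73.0% of all genes tested. The non-catalytic scaffold proteins of that complex, Aimp1, Aimp2 and Eef1e1, were higher in T cells in 3 of 3 cases. Aimp1 was at 27.0 ± 3.74 in B cells against 37.4 ± 4.09 in the T cell libraries (SD, n = 6, log2 fold change -0.46, SE 0.10, limma adjusted p = 0.00094). The median log2 fold change was -0.24 over the enzymes and -0.37 over the scaffold proteins, against -0.09 for all genes tested. These values are on the authors' scaling, where 31.4% of all genes tested were higher in B and 41.6% in T cells. With every library brought to the same total, Eprs, Qars, Lars and Kars changed sign and Dars was not past the threshold. The scaffold genes were not counted under that scaling.

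Several synthetases share their locus with another gene, and the strand setting used for counting was not given in the sources used here. Another annotated gene overlaps 19 of the 36, a protein-coding gene overlaps 11, and in 10 of these a coding partner is on the opposite strand. Hars and Hars2 overlap each other on opposite strands, Mars overlaps Ddit3, and Ears2 overlaps Ubfd1, whose mean was 23.2 adjusted TPM in B cells against 13.1 in T cells. Vars, Dars, Gars and Nars overlap no protein-coding gene.

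The cytosolic and the mitochondrial enzymes were each counted on the authors' scaling, and the difference between the classes was not tested. The background on it was 73.0% past the threshold, 31.4% higher in B and 41.6% higher in T cells. Of the 20 cytosolic genes, 3 were higher in B cells, 12 were higher in T cells and 5 did not pass, which is 75.0% past the threshold, with a median log2 fold change of -0.24. Of the 16 mitochondrial genes, 1 was higher in B cells, 8 were higher in T cells and 7 did not pass, which is 56.2% past the threshold, with a median of -0.19. With every library brought to the same total, 3 cytosolic genes were higher in B and 1 in T cells, and 4 and 0 mitochondrial ones were, with medians of 0.13 and 0.17. On that scaling 6797 of the 12520 genes tested passed, or 54.3%, with 4812 higher in B cells and a median of 0.25. Summed over genes, the cytosolic level overlapped between cell types, with a lowest, median and highest library of 622, 686 and 699 in B cells and a corresponding 604, 703 and 740 in T cells. Without Vars the cytosolic sums no longer overlapped, at 469 to 558 in B and 572 to 703 in T cells. The mitochondrial sum without Lars2 was 139 to 153 in B and 159 to 173 in T cells, also without overlap. Both separations hold on the authors' scaling. With every library brought to the same total, chosen for these sums after the data were seen, the cytosolic sums without Vars were 469 to 934 in B and 433 to 790 in T cells, and the mitochondrial sums without Lars2 were 139 to 272 and 111 to 201.5, which overlapped.

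The ratio of the cytosolic to the mitochondrial sum turned on Lars2 and Vars. With all 36 genes its median was 0.0665 in B cells against 0.0280 in T cells, and in every library the mitochondrial sum was the larger because of Lars2. Without Lars2 the cytosolic sum was 4.46 to 4.96 times the mitochondrial sum in B cells against 3.80 to 4.35 times in T cells, which did not overlap. Without both Lars2 and Vars the ratios were 3.36 to 3.96 and 3.60 to 4.13, which overlapped. The ratio of the class medians, on which single genes weigh less, had a median of 2.84 in B cells against 2.96 in T cells.

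Each mitochondrial enzyme was also set against the cytosolic enzyme for the same amino acid, which gave 16 pairs with Eprs used for both Ears2 and Pars2 and Farsa for Fars2. The cytosolic transcript was the more abundant in every library in 13 pairs, and the mitochondrial one in every library in 1, Lars and Lars2. Neither held for Iars with Iars2 and Yars with Yars2, whose ratios lay on both sides of equality. The median ratio of Yars to Yars2 was 1.01 in the B cell libraries and 1.13 in the T cell libraries.

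The within-library ratio needs no scaling between libraries, and it did not overlap between the cell types in 3 pairs. Vars over Vars2 had a lowest, median and highest ratio of 13.1, 15.3 and 16.7 in B cells against 2.47, 2.66 and 3.00 in T cells. Sars over Sars2 was 9.21, 11.0 and 11.7 in B cells against 16.3, 18.4 and 23.1 in T cells. Iars over Iars2 was 0.872, 0.955 and 1.21 in B cells against 0.609, 0.648 and 0.702 in T cells, so that the mitochondrial isoleucyl transcript exceeded the cytosolic one in all T cell libraries. The call of Vars2 depended on the scaling, as given above, and in Sars the mitochondrial partner did not pass the threshold on the authors' scaling, at 3.88 ± 0.245 in B cells against 4.12 ± 0.679 in T cells (SD, n = 6).

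**Figure D4:**
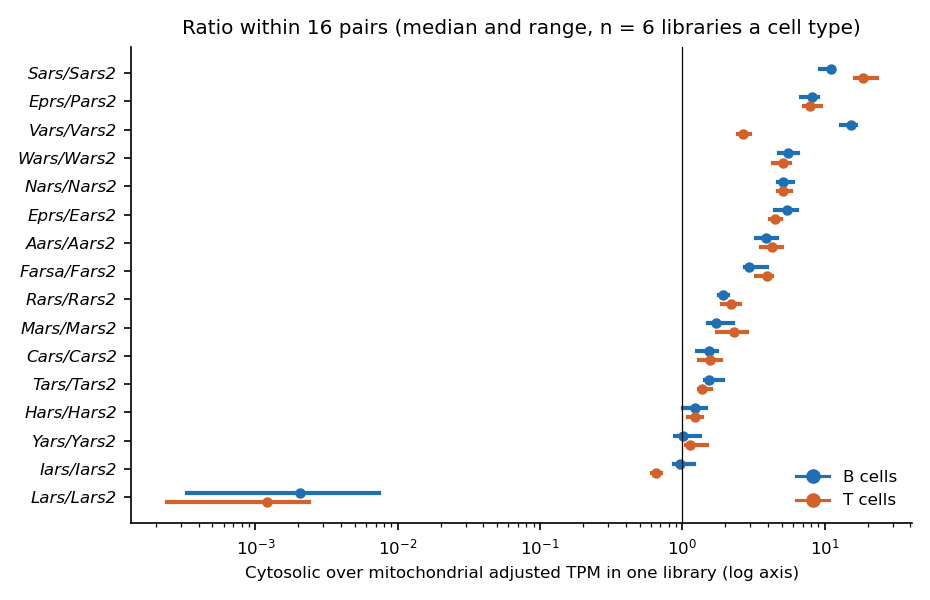
Ratio of the cytosolic to the mitochondrial transcript within each library for 16 pairs (log axis), as the median (point) and range (line) of 6 B cell libraries in blue and 6 T cell libraries in orange, with a vertical line at equal levels. The ranges of the cell types are apart for Vars/Vars2, Sars/Sars2 and Iars/Iars2, and Lars/Lars2 lies at 0.00744 or below in every library.

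Lars2 differed from the other members in its level and in its spread. In female B cells it was at 63837, 9894 and 4532 adjusted TPM, and in male B cells at 35248, 10315 and 3391. In female T cells it was at 25791, 12029 and 21762, and in male T cells at 35948, 14571 and 112633. The libraries of a single group thus differed more than the cell types did, and B and T libraries overlapped widely. Lars2 ranked between 2 and 14 among all genes of a library and made up 0.483% to 7.75% of the library total. Its level was 4.06 to 137 times the sum of the other 35 synthetases. For Lars, the cytosolic leucyl enzyme, the corresponding levels were 22.5 ± 2.45 in B cells against 29.0 ± 2.41 in T cells (SD, n = 6).

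The SD of Lars2 within groups was 1.52 on the log2 scale, larger than in 99.8% of the genes tested. The other 35 synthetases had SDs of 0.06 to 0.19 with a median of 0.12, and all genes tested had a median of 0.13. The deposited interval of Lars2 was narrow, with a median ratio of upper to lower bound of 1.02, and the libraries of a group differed by far more than that. The fitted log2 fold change between B and T cells was -1.14 (SE 0.77, limma adjusted p = 0.20). Without female B library 1 it was -1.68 (adjusted p = 0.045), the only one of the 19 alternatives in which Lars2 passed the threshold.

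Across libraries Lars2 moved with Gm42418, which holds 18S ribosomal RNA sequence and ran from 14179 to 543238 adjusted TPM. Within the 6 B cell libraries Pearson's r on the log2 scale was 0.97 and Spearman's rho 0.89 (exact permutation p = 0.011 and 0.033, adjusted over 14 relations 0.031 and 0.093). Within the 6 T cell libraries r was 0.98 and rho 1 (exact permutation p = 0.0028 for both, adjusted 0.031 and 0.039), where 0.0028 is the smallest p that 6 libraries allow. Without the 2 libraries farthest from the median of Gm42418, r was 0.98 in B cells against 0.96 in T cells. In B cells the remaining libraries lay close together at 23315 and 23025 of Gm42418, with Lars2 at 9894 and 10315. The others lay at 14179 and 14221, with Lars2 at 4532 and 3391. These r values rest on few libraries and carry no test, so they cannot show whether the relation depends on single libraries.

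The other RNAs without a protein product that were listed with Gm42418 gave a mixed picture, with the same test and adjustment. The mitochondrial ribosomal RNA mt-Rnr1 had r = 0.97 with Lars2 in T cells (exact permutation p = 0.0083, adjusted 0.031). In B cells r for mt-Rnr1 was 0.90 (exact permutation p = 0.033, adjusted 0.067), and it fell to 0.13 without 2 libraries. Rn7sk, a nuclear RNA that restrains transcription elongation, had r = -0.62 in B cells against -0.47 in T cells (exact permutation p = 0.17 and 0.37, adjusted 0.24 and 0.47). Gm26917 and mt-Rnr2 had r = 0.99 and 0.97 in T cells (exact permutation p = 0.0056 and 0.011, adjusted 0.031 for both) and 0.79 and 0.77 in the B cell libraries (exact permutation p = 0.044 and 0.11, adjusted 0.078 and 0.16). Without the 2 libraries farthest from the median, these B cell values fell to 0.51 for Gm26917 and turned to -0.54 for mt-Rnr2. AY036118 and Rmrp had r = -0.45 and -0.38 in the B cell libraries and 0.83 and -0.12 in T cells, with adjusted p from an exact permutation test between 0.067 and 0.74. The 5 tested genes whose deviations from the group means were most like those of Lars2 over 12 libraries were Mir6240 (r = 0.99), Gm42418 (0.97), Gm12895 (0.94), Gm10222 (0.92) and mt-Rnr1 (0.92). No other synthetase was among them. Of the other 35 synthetases, 33 had a negative r, where 51.9% of all genes tested did, with a median of -0.35. The values ran from -0.82 for Yars and -0.80 for Wars2 to 0.13 for Rars. Mir6240, annotated as a microRNA gene, ran from 31.1 to 1364 adjusted TPM. These correlations of deviations are descriptions over libraries that differ in RNA make-up and whose depth is unknown. Gm42418 alone took from 2.03% to 37.4% of a library total.

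**Figure D5:**
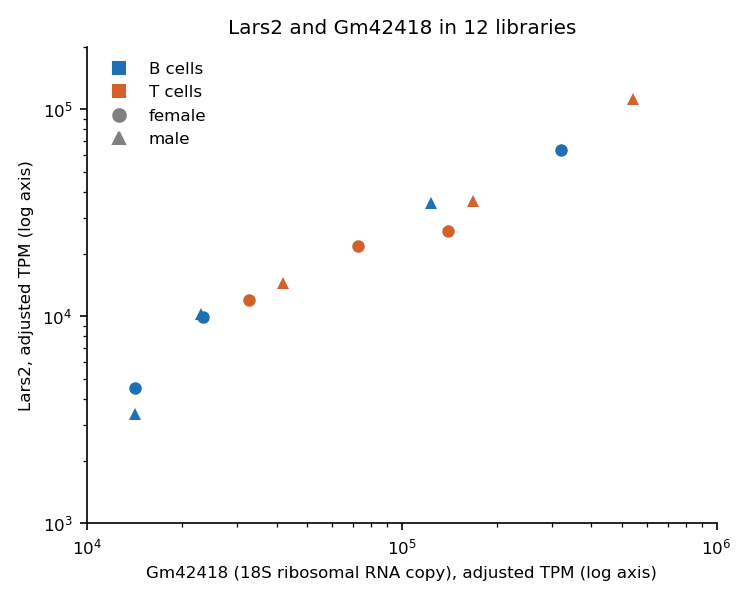
Lars2 against Gm42418 in adjusted TPM (both axes log), with each point 1 library, B cells in blue, T cells in orange, females as circles and males as triangles. The 12 points rise together from 3391 and 14221 in male B library 3 to 112633 and 543238 in male T library 6.

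Lars2 lies at chr9:123366927-123462666 on the plus strand, and the table assigns it 1 transcript. In GENCODE M21 that transcript has 3894 bases in 21 exons. A stretch in its last exon, within the 3′ untranslated region at chr9:123462048-123462119, begins 370 bases after the stop codon. This stretch was 98.6% identical over 72 bases to Gm15564, and a longer one from chr9:123461933 was 80.1% identical over 196 aligned bases to AA474408. Both of those transcripts were low, at 0.0408 to 1.46 and 2.02 to 3.26 adjusted TPM. The deposited values do not show where along Lars2 the reads fell, and whether reads of ribosomal RNA were counted as Lars2 was not tested.

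No synthetase passed the threshold between females and males. In B cells 0 of 36 passed the threshold (limma), where 0.144% of all genes tested did, and 0 had an unadjusted p under 0.05, where 2.98% of all genes did. In T cells 0 of 36 passed, against 0.104% of all genes, and 0 had an unadjusted p under 0.05, against 2.55%. Deviations of same-numbered T libraries correlated between the sexes, and with the replicate number as a block 0 passed and 2 had an unadjusted p under 0.05, Aars and Cars, against 3.33% of all genes. Their log2 fold changes, female minus male, were -0.25 (SE 0.11) and -0.22 (SE 0.08), each with a limma adjusted p of 1.00. On the authors' scaling the male library was the higher in all 3 same-numbered T pairs for 12 synthetases, against 13.9% of all genes, and the female library for 1, Sars2, against 14.1%. With every library brought to the same total, chosen for this count after the data were seen, the male library was the higher in all 3 pairs for 1 synthetase, against 1.2% of all genes. The difference of the sex effects between the cell types also gave 0 of 36 past the threshold (background 0.0%) and 0 with an unadjusted p under 0.05 (background 2.36%). In each cell type, 3 libraries of each sex were compared, and in simulated data this fit recovered 93.2% of log2 changes of 1 in B cells against 93.7% in T cells. Smaller changes were not simulated, so how many sex differences of the size fitted for most synthetases would be missed is unknown.

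The smallest unadjusted p in T cells was that of Vars, at 33.2, 31.2 and 32.4 adjusted TPM in females and 38.3, 36.2 and 33.9 in males (log2 fold change, female minus male, -0.16, SE 0.08, limma adjusted p = 1.00). The libraries of the sexes did not overlap for Vars in T cells, which was the case for 1 of 36 synthetases and 8.49% of all genes tested. In B cells the sexes did not overlap for Pars2, the mitochondrial prolyl enzyme, at 3.87, 4.47 and 4.56 in females and 4.78, 4.93 and 4.60 in males (log2 fold change -0.13, SE 0.09, limma adjusted p = 1.00). That was again 1 of 36, against 7.2% of all genes tested. Lars2 had the largest fitted sex differences of any synthetase, 0.41 in B cells (SE 1.08) and -1.04 in T cells (SE 1.08), with SEs larger than the differences.

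Promoter sequence was available for 27 of the 36 genes, as RefSeq windows of GRCm38.p6 from 250 bases before to 50 after the transcription start. Motifs of factors known to act on synthetase or mitochondrial genes were searched on both strands, and no matches of different motifs overlapped. The C/EBP-ATF response element, TGATGNAA, through which ATF4 answers amino acid shortage, was found in 5 members, all cytosolic, namely Aars, Gars, Iars, Tars and Yars. It was present in 5 of 13 cytosolic genes and 0 of 14 mitochondrial genes, and in 4.51% of 27025 genes. Between the cell types 4 of these members were higher in T cells and 1, Iars, was higher in B cells, on the authors' scaling. On it 41.6% of all genes tested were higher in T and 31.4% in B cells. With every library brought to the same total, Aars, Tars and Yars changed sign and Gars was not past the threshold. The matches upstream of the start are shown with the element in capitals, on the strand of the gene, where it reads in reverse.
Aars, chr8:111033704-111033763, plus strand: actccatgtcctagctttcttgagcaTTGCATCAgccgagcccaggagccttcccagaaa
Gars, chr6:55037941-55038000, plus strand: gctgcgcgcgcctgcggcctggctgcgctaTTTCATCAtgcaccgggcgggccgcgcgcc
Tars, chr15:11399659-11399718, minus strand: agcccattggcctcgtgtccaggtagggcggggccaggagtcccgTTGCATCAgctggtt

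The core GCGCANGC, bound by NRF1, a regulator of nuclear genes for mitochondrial proteins, was found in 10 of 27 members, against 11.2% of all genes. It was in 5 of 13 cytosolic genes (Eprs, Farsb, Kars, Sars and Tars) and in 5 of 14 mitochondrial genes (Iars2, Mars2, Rars2, Vars2 and Wars2). Of these 10 genes, 6 were higher in T cells, 1 was higher in B cells and 3 did not pass. All genes tested gave 41.6% higher in T and 31.4% in B cells on that scaling, the authors' own. With every library brought to the same total, Eprs, Kars, Tars and Vars2 changed sign and Iars2 was not past the threshold. The mitochondrial members with matches before the start are shown, with the core in capitals on either strand, to let their spacing be compared.
Rars2, chr4:34614880-34614939, plus strand: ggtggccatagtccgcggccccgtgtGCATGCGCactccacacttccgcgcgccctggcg
Vars2, chr17:35667605-35667664, minus strand: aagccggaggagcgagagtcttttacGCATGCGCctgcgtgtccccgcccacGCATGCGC
Wars2, chr3:99141000-99141059, plus strand: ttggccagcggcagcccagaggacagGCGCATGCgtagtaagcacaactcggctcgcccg

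Vars2 was the only one of the 27 genes besides Tars with 2 matches to the core. The E-box CACGTG, a site of MYC and related factors, was in 5 of 27 members, Aars, Farsb, Iars, Tars and Ears2, against 8.09% of all genes. A match shows only that the letters are present in the window.

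Genes that act beside the synthetases were described by the same fit, on the authors' scaling only. On it 31.4% of all genes tested were higher in B and 41.6% higher in T cells. Directions within these lists were not counted under the other scalings. With every library brought to the same total, the median log2 fold change of all genes tested was 0.25. Of 7 tested genes for other charging enzymes and routes, 3 were higher in B and 2 in T cells, or 71.4% past the threshold. Qrsl1 and Gatc, subunits of the enzyme that converts glutamate on mitochondrial glutamine tRNA, were at 16.6 ± 0.924 and 10.7 ± 0.500 in B cells against 7.86 ± 0.610 and 6.32 ± 0.846 in T cells (SD, n = 6). Their log2 fold changes were 0.99 (SE 0.06, limma adjusted p = 5.0e-09) and 0.68 (SE 0.08, adjusted p = 4.1e-06). Pstk, which acts on the serine of selenocysteine tRNA after Sars has charged it, was at 7.52 ± 0.607 in B cells against 14.8 ± 0.979 in the T cell libraries (log2 fold change -0.90, SE 0.06, adjusted p = 3.2e-08). Sepsecs, the next enzyme of that route, was higher in B cells, at 6.70 ± 0.603 against 5.43 ± 0.494 (log2 fold change 0.26, SE 0.07, adjusted p = 0.0041).

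Of 9 cytosolic translation factors, 7 were higher in T cells and 2 did not pass, which is 77.8% past the threshold against 73.0% of all genes tested. Eef1a1, the elongation factor that carries charged tRNA to the ribosome, was at 5160 ± 661 in B and 9954 ± 1171 in the T cell libraries (SD, n = 6, log2 fold change -0.95, SE 0.20, limma adjusted p = 0.00083). Eef1b2, part of its exchange factor, was at 346 ± 41.2 and 801 ± 87.1 (log2 fold change -1.21, SE 0.10, adjusted p = 2.9e-07). Of 8 mitochondrial translation factors, 1 was higher in B and 3 in T cells, and of 76 mitochondrial ribosomal protein genes, 5 were higher in B and 42 in T cells, or 50.0% and 61.8% past the threshold. The median log2 fold change was -0.57 for the cytosolic factors, -0.05 for the mitochondrial factors and -0.22 for the mitochondrial ribosomal proteins. On the same scaling, that of the authors, it was -0.09 for all genes tested, and how these lists move under other scalings was not tested.

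Of 12 tested genes of the ATF4 and amino acid response, 4 were higher in B and 4 in T cells, or 66.7% past the threshold. Eif2ak4, the kinase that senses uncharged tRNA, was at 14.3 ± 0.417 in B cells against 4.46 ± 0.119 in the T cell libraries (SD, n = 6, log2 fold change 1.49, SE 0.05, limma adjusted p = 8.6e-12). Slc7a5, a transporter of large neutral amino acids such as valine and leucine, was at 5.21 ± 0.788 and 10.8 ± 1.71 (log2 fold change -0.93, SE 0.10, adjusted p = 3.6e-06). Mthfd2, a mitochondrial folate enzyme, was at 7.37 ± 1.20 and 25.3 ± 2.74 (log2 fold change -1.66, SE 0.09, adjusted p = 4.0e-09). Asns, which makes asparagine, did not pass the filter, with means of 0.207 in B cells against 0.00865 in T cells. Of 4 tested genes for MYC and its regulators, 2 were higher in B cells, and Myc itself was at 25.8 ± 3.54 and 21.8 ± 3.11 (log2 fold change 0.23, SE 0.10, adjusted p = 0.0504).

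Markers of some other cell states moved with the comparison of B and T cells. The counts below are on the authors' scaling only. On it 73.0% of all genes tested passed, 31.4% higher in B and 41.6% higher in T cells. The summed level of 4 cycling markers was 22.1 to 48.2 in B cells against 3.47 to 5.47 in T cells, and 4 of 4 were higher in B cells. The summed level of 3 plasma cell markers was 49.7 to 64.1 in B cells against 26.5 to 32.8 in T cells, with 2 higher in B and 1, Prdm1, in T cells. Most of that sum was Xbp1, with a mean of 50.1 in B and 27.0 in T cells. The 3 monocyte and macrophage markers in the table summed to 8.95 to 13.1 and 1.06 to 4.55. Regulatory T cell markers summed to 0.594 to 1.44 in B cells against 1.75 to 21.0 in T cells. The erythroid markers ran from 0.912 to 198 in B cells against 2.45 to 43.8 in T cells, and neither of the 2 tested passed the threshold. CD8 T cell markers summed to 0.607 to 2.32 in the B cell libraries and 5.48 to 8.27 in those of T cells, and its members went opposite ways, with a log2 fold change of -2.95 for Cd8b1 (SE 0.09, limma adjusted p = 5.6e-12) and 0.99 for Cd8a (SE 0.14, adjusted p = 3.3e-05). The 2 NK cell markers stayed at or below 0.788 and the 3 neutrophil markers at or below 2.56 in every library, and none of them passed the filter. The 5 activation and stress markers overlapped between the cell types, at 111 to 318 and 97.4 to 383, and 0 passed the threshold. The part of these cells in the synthetase differences was not tested.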

How the data were processed

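RNA from 12 libraries of mouse spleen B and T cells was sequenced after removal of ribosomal RNA with a strand-specific kit. The submitters' processing notes name Trim Galore, FastQC, STAR and mm10, and the tool that made the values is not given in the sources used here. The table deposited by the authors holds a signal named adjusted TPM for each gene and library, with lower and upper bounds, rescaled between libraries by a method not given in the sources used here. The values are not counts, depth is unknown, and the total of female B library 1 is 1000000. Some label fields name genomic DNA, but the protocol describes RNA sequencing and the values were read as expression.

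Groups came from the labels. Values were transformed as log2(adjusted TPM + 1), genes at 1 or more in 3 or more libraries were kept, and limma 3.58.1 (R 4.3.3) was fitted over all 12 libraries with 1 coefficient per group and a mean-variance trend, with Benjamini-Hochberg adjustment. The contrasts were B minus T, female minus male within each cell type, and the difference of the sex effects. On simulated data for 12520 genes with 200 changed by 1 on the log2 scale, the fit recovered 97.3% for B against T cells and 79.6% for the difference of sex effects. Correlations and plots used Python 3.11.15, scipy 1.17.1, matplotlib 3.10.9 and pandas 2.3.3, and blastn 2.17.0+ compared transcripts. Coordinates come from GENCODE M21 (GRCm38), to which 40254 genes matched by identifier, and promoters from RefSeq (GRCm38.p6). A coordinate span is 1-based.

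The members, the related lists and the tests were chosen with earlier results of these data known. Members were described in full if past the threshold in a sex contrast, if among the 5 largest non-overlapping changes in each direction between B and T cells, or as part of a cytosolic and mitochondrial pair, and Lars2 in any case. Only Vars met the second condition among genes higher in B cells, so the other B-higher genes were named after their values were seen. The labels number B libraries 1 to 3 and T libraries 4 to 6 in each sex. The sample descriptions carry a further number, 2 for female B and male T and 1 for male B and female T libraries. What it stands for is not given. The sex contrasts and their difference between cell types cannot be told apart from it. Over all genes tested, deviations of same-numbered T libraries of the 2 sexes correlated at 0.72, 0.55 and 0.52. The labels do not say what same-numbered libraries share, so the pairing of T libraries is taken from these correlations. The fit with the replicate block was run as an alternative. Alternatives covered the pseudocount, the filter, the scaling, the trend, the block and each library left out.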

Additional observations from a re-analysis of the deposited data

Results flagged for a closer look

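In each cell type the highest or lowest of the 6 libraries was compared with its nearest neighbor by Dixon's criterion, for 72 combinations of gene and cell type. The criterion was applied to adjusted TPM itself, not on the log2 scale used for the fits and correlations. In 4 of the combinations a library stood apart, and chance alone flags about 1 in 20 if values are normally distributed. Qars was at 39.6 adjusted TPM in female B library 1, below the 45.4 to 48.9 of the other B cell libraries. Hars2 was at 16.3 in female B library 2, below the 19.1 to 20.3 of the others. Rars2 was at 16.9 in female B library 3, above the 14.1 to 14.9 of the others. Lars2 was at 112633 in male T library 6, above the 12029 to 35948 of the other T cell libraries. The same library held the highest level of Gm42418, 543238.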

How the results depend on the processing

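Depth is unknown, and 3 pools a group limit the sex contrasts. Between B and T cells 24 synthetases were past the threshold, where 73.0% of all genes tested were. The count was 21 to 25 with any single library left out, and 23 without female B library 1 and male T library 6 together, a setting chosen after the data were seen. Of all genes tested, 69.6% to 73.4% and 70.7% passed in these fits. A pseudocount of 0.1 and a fit without the trend each gave 24, no filter gave 23 and median-ratio scaling 22. In the same order, 72.9%, 72.7%, 59.8% and 72.3% of all genes tested passed. Rescaling every library to a total of 1000000 gave 8, and the equal protein-coding total without Lars2 gave 16, with 7 and 9 of them higher in B cells. Of all 12520 genes tested, 54.3% and 71.8% passed under those scalings, with 4812 and 5672 genes higher in B cells.

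These scalings also turned the sign of small log2 fold changes (B minus T), and the cause was not tested. With the total of 1000000 the values of 19 genes became positive: Aars 0.13, Cars 0.086, Eprs 0.12, Farsa 0.27, Hars 0.22, Kars 0.13, Lars 0.014, Mars 0.29, Qars 0.13, Rars 0.30, Tars 0.13, Yars 0.099, Aars2 0.21, Cars2 0.14, Hars2 0.20, Pars2 0.097, Sars2 0.25, Vars2 0.020 and Yars2 0.27. With the equal protein-coding total 12 did so: Aars 0.0067, Farsa 0.14, Hars 0.093, Kars 4.1e-05, Mars 0.16, Qars 0.0037, Rars 0.17, Aars2 0.10, Cars2 0.019, Hars2 0.075, Sars2 0.14 and Yars2 0.15. With median-ratio scaling these were Mars 0.0069, Rars 0.012 and Sars2 0.0091. Farsb ran from -0.046 to 0.047 with single libraries left out and was not past the threshold in any of these fits.

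The median ratio of cytosolic to mitochondrial sums, 0.0665 in B and 0.0280 in T cells, became 4.58 and 4.14 without Lars2, and 2.84 and 2.96 as a ratio of class medians. Without Gars and Kars it was 0.0598 and 0.0244.

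With the replicate block the count of synthetases past the threshold remained 0 in the sex contrast of B cells, 0 in that of T cells and 0 in their difference, as in every other alternative run for these contrasts. In the T cells 2 synthetases then had an unadjusted p under 0.05, against 0 without the block. Same-numbered B libraries of the sexes correlated at -0.17, -0.04 and -0.34, which gives no sign of pairing. Every T library correlated best with its own number. The pairing of the T libraries is taken from these correlations, as the labels do not state it.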
